A study of Danio rerio with 32 samples.

Results

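The genes described here encode the nuclear part of the mitochondrial respiratory chain in zebrafish. They were taken from the 3 gene tables of 12 hpf embryos (hours post fertilization) as all genes whose symbol starts with ndufa, ndufb, ndufc, ndufs or ndufv (complex I), sdh (complex II), uqcr (complex III), cox followed by 4 to 8 (complex IV) or atp5 (complex V), without the ndufaf assembly factors. The rule gave 100 of the 32519 genes in the tables, with 42 in complex I, 9 in complex II, 8 in complex III, 21 in complex IV and 20 in complex V. The rule itself uses symbols and no measured value.

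The respiratory chain sits in the inner mitochondrial membrane. Complex I (NADH dehydrogenase) and complex II (succinate dehydrogenase, which is also an enzyme of the TCA cycle) pass electrons to ubiquinone, complex III passes them on to cytochrome c, and complex IV (cytochrome c oxidase) to oxygen. Complexes I, III and IV pump protons, and complex V (ATP synthase) uses the proton gradient to make ATP. Most subunits are encoded in the nucleus and a smaller set in the mitochondrial genome, and eggs are loaded with maternal mitochondria, so that early fish embryos start from a maternal stock.

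The study asked how loss and gain of Adar, an enzyme that edits adenosine to inosine in double-stranded RNA, act on the early embryo. All embryos were wild type, of the strain ABTL by the labels and AB by the methods. Controls were not injected, Adar KD embryos received 1 ng of a translation-blocking adar morpholino, and Adar OE embryos received 50 pg of adar mRNA, without an injected control among the groups used here. Each of the 3 libraries per group came from rRNA-depleted RNA of 20 pooled whole embryos at 12 hpf. By the methods, the 12 hpf embryos were the offspring of 1 mating pair, so the pools share their parents and p-values measure only the spread between these pools. In whole embryos, a lower number of cells that express a gene and less RNA per cell cannot be told apart.

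The reads of each library were worked out from the deposited means, and libraries are numbered within a group by their size factor, from the largest down. The libraries held 603560 to 1085854 reads on the genes with a clear count. Only 2.69% to 2.85% of the reads in the deposited means fell on genes. The library kit marks strand and the strand setting of the counting is not given in the sources used here, so whether the counts hold the reads of the genes' own strand is not known, and this applies to every count below. adar itself gave 325, 78.7 and 83.4 normalized reads in the libraries labelled control 1 to 3, 133, 101 and 89.9 in Adar KD 1 to 3 and 327, 58.1 and 372 in Adar OE 1 to 3. The library labelled control 1 thus had as many adar reads as Adar OE 1 and 3, and the library labelled Adar OE 2 had as few as the other controls. Over 10840 genes with a mean of at least 10 reads, both nevertheless had their highest correlation with a library of their own label, with Pearson's r of 0.819 to 0.891 for control 1 with the other controls and 0.685 to 0.756 with Adar OE, and r of 0.854 to 0.906 for Adar OE 2 with the other Adar OE libraries and 0.648 to 0.756 with the controls. A morpholino that blocks translation leaves the mRNA, so adar reads do not check the Adar KD label. Adar KD 2 stood apart, with r of 0.617 to 0.717 with the controls against 0.765 to 0.832 for the other Adar KD libraries. With Adar OE it had r of 0.750 to 0.807, about as high as with its own group (0.807 to 0.810), where the other Adar KD libraries had 0.633 to 0.713. Reads were spread over more genes in Adar OE (26180 to 27530 genes with a read) than in the controls (17464 to 21233), with 22814 to 26335 in Adar KD. Of the markers of the 12 hpf embryo, krt4 (an epidermal keratin), cdx4, tbxta and msgn1 (genes of the tailbud and mesoderm) were found in every library, and myod1 (a muscle regulator) was at 0 reads in Adar KD 1 and 3. The markers did not move alike. msgn1 was at 47.9 to 85.9 normalized reads in control, 1.14 to 8.41 in Adar KD and 18.6 to 28.8 in Adar OE, while tbxta was at 33.8 to 47 in control, 35.3 to 49.7 in Adar KD and 12 to 31.8 in Adar OE. her1, a gene of the segmentation clock, was at 1.83 to 12.4, 4.55 to 11.8 and 12 to 27.1. The part of such differences between the embryos in the results below was not tested.

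As a share of the reads on genes with a clear count, the respiratory chain genes were lower in Adar OE than in control. Their reads made up 0.271%, 0.318% and 0.407% in the libraries labelled control, 0.279%, 0.227% and 0.298% in Adar KD and 0.224%, 0.224% and 0.190% in Adar OE. All 3 Adar OE libraries were below all control libraries, while Adar KD and control overlapped. The Adar OE libraries were also below all Adar KD libraries, but only just for Adar KD 2 (0.227% against 0.224%). These shares rest on 1144 to 3031 reads per library, and their 95% Wilson intervals, which cover counting error only, reached from 0.215% to 0.234% for Adar OE 2 and from 0.261% to 0.282% for control 1. The interval of Adar KD 2, 0.217% to 0.238%, overlapped those of Adar OE 1 (0.214% to 0.234%) and Adar OE 2. The mean share was 0.332% ± 0.0691 (SD, n = 3) in control, 0.268% ± 0.0368 (SD, n = 3) in Adar KD and 0.213% ± 0.0199 (SD, n = 3) in Adar OE, which is 0.640 times the control for Adar OE and 0.807 times for Adar KD.

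The complexes did not move alike in these shares, which weigh genes by their reads. Complex V reads made up 0.120%, 0.138% and 0.191% in control and 0.0910%, 0.0862% and 0.0742% in Adar OE, a mean ratio of 0.560. This ratio leans on 1 gene, atp5f1b, with 472 of 1100, 497 of 1153 and 538 of 1355 complex V reads in control. In Adar OE it had 249 of 820, 315 of 797 and 119 of 448. Complex IV was at 0.0524%, 0.0592% and 0.0643% in control and 0.0381%, 0.0371% and 0.0283% in Adar OE, a ratio of 0.588, and it was also lower in Adar KD (0.0400%, 0.0391% and 0.0513%) without overlap. For complex III the ratio of Adar OE to control was 0.703, with Adar OE 3 and control 1 both at 0.0159% after rounding and Adar OE 3 the lower. Complex I overlapped between Adar OE and control, at a ratio of 0.748. Complex II, which had only 51 to 109 reads per library, gave 0.00929% ± 0.000942 (SD, n = 3) in control and 0.00944% ± 0.00192 (SD, n = 3) in Adar OE, a ratio of 1.02.

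**Figure D1:**
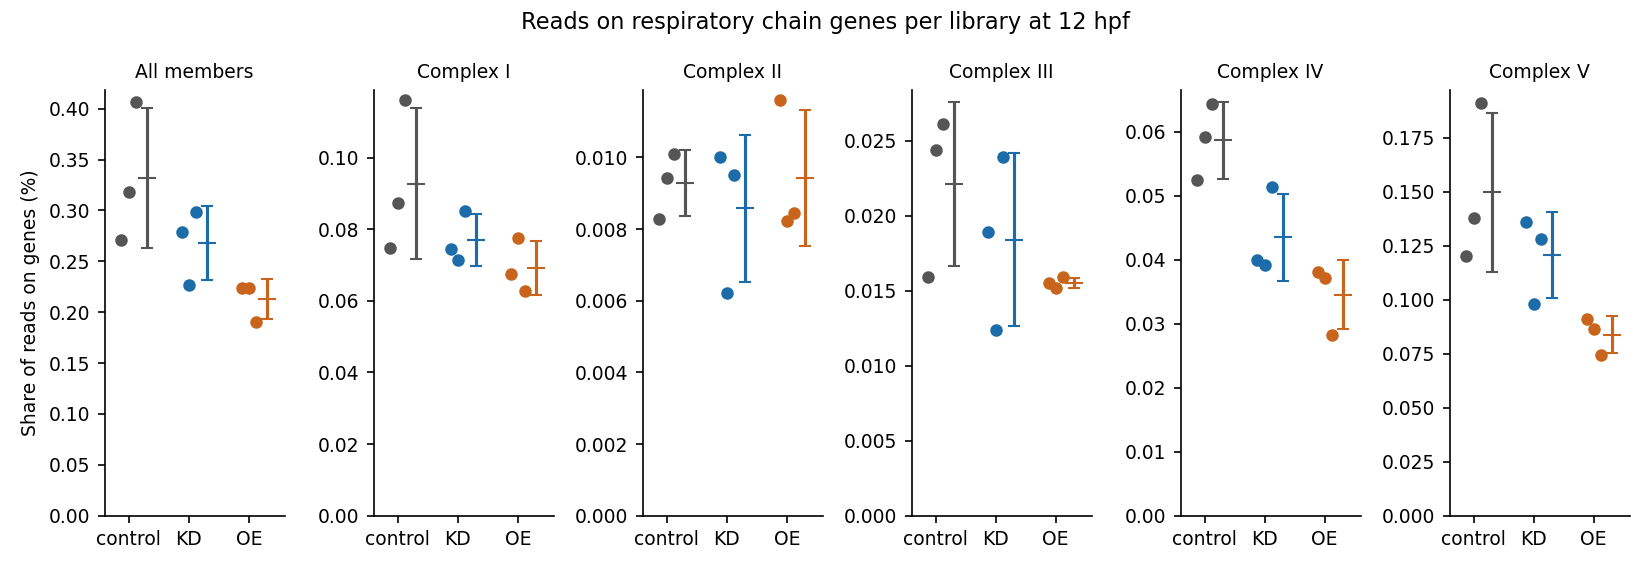
Share of the reads on genes with a clear count (%) that fell on respiratory chain genes, for all members and for each complex. Each 12 hpf library is 1 point, with the mean and SD beside the points. All 3 Adar OE libraries (0.190% to 0.224% for all members) lie below the 3 controls (0.271% to 0.407%), and complex II shows no such order.

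Each gene was tested with limma voom on 6 libraries for each pair of groups, and called at a Benjamini-Hochberg adjusted p under 0.05 over all genes tested. A gene was tested where its mean over the 6 libraries was at least 10 reads after division by the size factors (normalized reads). In Adar OE against control, 58 of the 100 genes were tested, 19 fell and 0 rose, against 18.3% of all 10886 genes tested that were called lower and 12.6% called higher. The 19 are 32.8% of the members tested. Their median log2 fold change was -0.92, against -0.15 over all genes tested, and 53 of the 58 were below 0, as were 55.5% of all genes tested. At an unadjusted p under 0.05 in the same limma test, 30 members were lower and 0 higher, against 25.1% and 18.6% of all genes. Without Adar OE 1 or without Adar OE 2, 5 and 7 of 58 members were called lower, near the 8.63% and 12.4% of all genes. In 34 of the 58 all Adar OE libraries were below all controls, which held for 26.8% of all genes tested. In 0 members they were all above (21.5% of all genes tested). Of the 58 members, 13 passed the filter only through the controls, as did 4.57% of all genes tested. Only 1 member, but 19.0% of all genes, passed only through Adar OE. Members that passed only through the controls had to be lower, and they enter these counts and the median, with 2 of the 19 calls. Without control 1 and Adar OE 2, the libraries with unexpected adar reads, 18 of 61 members tested fell and 0 rose (12.4% and 5.84% of all genes), with a median of -1.16 against -0.14 over all genes. This pair was chosen after the data were seen. As a log2 difference from the control mean, the median of 55 members was -0.39, -0.12 and 0.55 in control 1 to 3. It was -0.95, -0.90 and -1.19 in Adar OE 1 to 3. The libraries left out were thus those nearest the other group, so the lower median is no support for a fall.

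Adar KD against control gave far fewer calls. Of 56 members tested, 1 fell (cox6b2) and 0 rose, against 4.70% of all 9785 genes tested that were called lower and 1.54% called higher. At an unadjusted p under 0.05 in the limma test, 14 members were lower and 1 was higher, against 13.8% and 7.76% of all genes. Their median log2 fold change was -0.61, against -0.08 over all genes tested, and 48 of the 56 were below 0, as were 54.6% of all genes. All Adar KD libraries were below all controls in 8 members, or 14.3% of those tested (16.4% of all genes tested), and above them in 2 members (12.0% of all genes tested), the complex V genes atp5f1e and atp5if1b, named after their values were seen. Of the 56, 6 members passed the filter only through the controls and so had to be lower, against 4.77% of all genes tested. Of these 6, 0 were called. Without Adar KD 2 the median was -0.42 and 0 of 59 members were called (2.26% of all genes lower and 1.32% higher).

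In Adar OE against Adar KD, 48 members were tested, 4 were lower in Adar OE and 0 higher, against 9.27% of all 11857 genes tested that were called lower and 6.50% called higher. The 4 (8.33% of the members tested) all belonged to complex V: atp5f1b, atp5f1e, atp5mf and atp5pf. Their share was near that of all genes tested. The median over the 48 was -0.42, against 0.05 over all genes tested. Of the 48, 5 passed the filter only through Adar KD and so had to be lower in Adar OE, against 5.35% of all genes. In 11 members all Adar OE libraries were below all Adar KD libraries (17.8% of all genes tested), and in 2, ndufb2 and atp5pb, all were above (18.5% of all genes tested). Without Adar KD 2, 14 of 49 members were called lower in Adar OE and 1 higher, and calls over all genes rose as well, to 17.9% lower and 13.8% higher. Without Adar KD 3, 0 of 48 were called (5.91% of all genes lower and 3.19% higher). Both comparisons with control share the control libraries, so the values of a gene in them are not independent.

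The call depended on the level of a gene. In Adar OE the genes with many reads were lower as a whole: among all 2743 genes tested with a mean of at least 50 normalized reads the median log2 fold change was -0.70 and 50.2% were called lower, beside a median of -1.14 and 8 of 10 called for the members. Between 20 and 50 reads the median was -0.19 over all 3719 genes and -0.84 over the 26 members, of which 8 were called lower, against 14.3% of all genes in this range. Between 10 and 20 reads the 4424 genes had a median of 0.53 and the 22 members one of -0.91. Among these 3 members were called lower, against 1.88% of the genes. The median of the members was below that of all genes in each range. In the lowest range the filter bears on this: 13 of the 22 members had a mean under 10 in Adar OE and passed only through the controls, as did 10.6% of all genes there, while 1 member and 42.8% of the genes passed only through Adar OE. Such genes had to differ, so the lowest range says nothing of how far members fell.

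After the median trend with level over 40 bins was subtracted, 13 of the 58 members were called lower in Adar OE and 0 higher, against 4.51% of all genes tested lower and 7.94% higher, with a median of -0.77. Only 6 genes were called both ways: cox6c, ndufa8, ndufb3, ndufb5, ndufb9 and uqcrfs1. The 7 others called after the subtraction were atp5pd, cox5aa, ndufa6, ndufc2, ndufs7, ndufv2 and sdhc, and all of them had an Adar OE mean under 10 and passed the filter only through the controls, as did cox6c and ndufb9. These calls are therefore a description and no support for a fall. The medians after the subtraction were -1.18, -0.36, -0.61, -0.77 and -0.79 for complexes I to V, another order than in the shares of reads. Genes that passed only through the controls enter these medians too. The calls of the genes with most reads, such as atp5f1b (adjusted p = 0.055 in the same limma fit) and cox4i1 (adjusted p = 0.14 in limma), were lost. In Adar KD 0 members were called after the subtraction, in either direction (1.92% of all genes lower and 1.94% higher). In Adar OE against Adar KD, atp5mf, atp5pf and atp5if1b were then called lower and 0 members higher (6.49% of all genes lower and 6.38% higher). Of these, atp5if1b had a mean of 9.25 in Adar OE and 29.8 in Adar KD. It passed the filter only through Adar KD and had to be lower, so its call is no support for a fall.

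**Figure D2:**
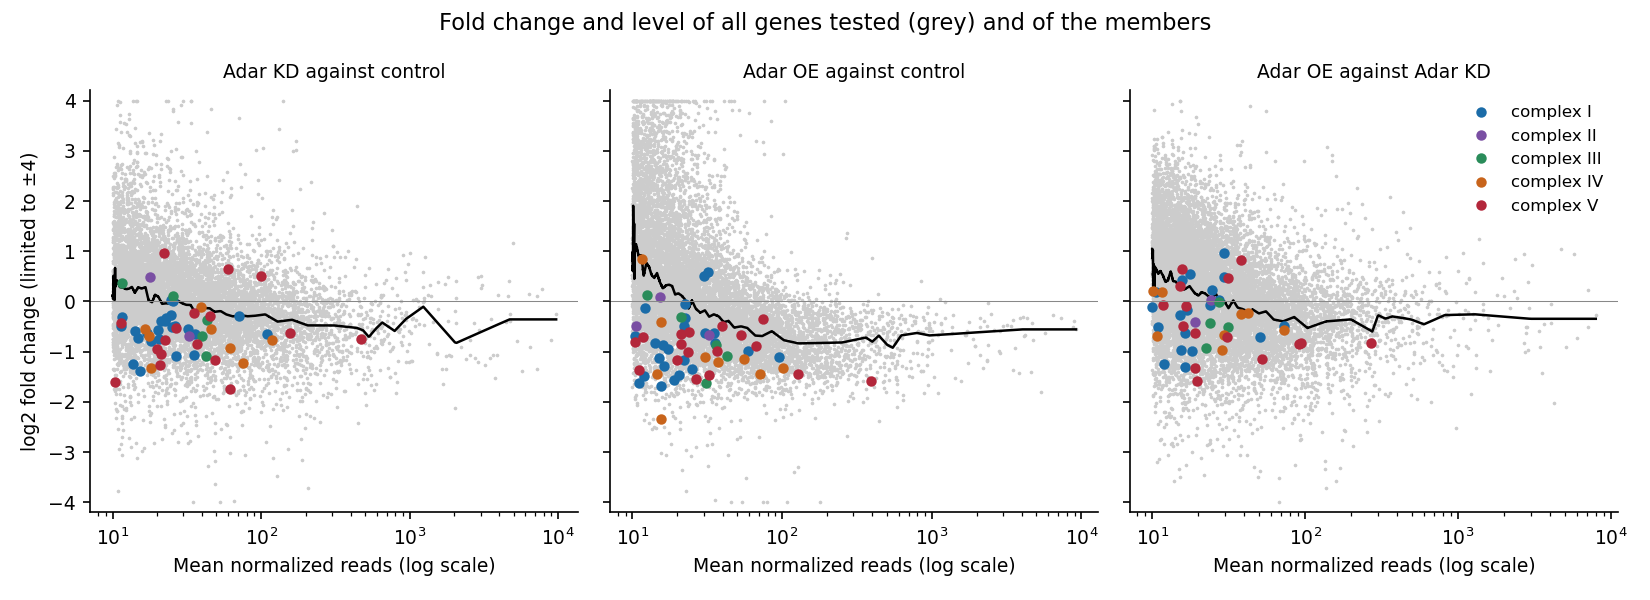
log2 fold change against mean normalized reads (log axis) for all genes tested (grey, limited to ±4) and for the members by complex, in the 3 comparisons, with the median trend of all genes as a line. In Adar OE the trend falls with level, and most members lie below it (median -0.92, or -0.77 after the trend was subtracted).

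Scaling set the size of the fall. With size factors from total reads on genes, 7 members were called lower in Adar OE and 0 higher (7.58% and 20.4% of all genes tested), with a median of -0.59 against 0.30 over all genes tested. With size factors from genes of at least 100 reads, which moved the median of all genes to 0.81 and called 41.2% of them higher, 2 members were called lower (atp5f1b and cox6c, against 2.07% of all genes) and 3 higher (ndufa9, ndufb2 and a cox6a1 gene), with a median of -0.13. With the main scaling, cox6c passed the filter only through the controls and the cox6a1 gene ENSDARG00000054588 only through Adar OE. The direction of these calls is therefore no support for a fall or a rise. Cyclic loess called 8 members lower and 0 higher in Adar OE (4.41% and 5.82% of all genes), a single fit of all 9 libraries 16 and 0 (15.6% and 10.8%), and a fit with no filter on low counts 23 and 4 of 100 (6.74% and 24.7%). The distance between the median of the members and that of all genes was -0.78 with the main scaling, -0.89 with total reads, -0.94 with the high genes and -0.84 with cyclic loess. For Adar KD these distances were -0.53, -0.56, -0.56 and -0.56, and for Adar OE against Adar KD -0.46, -0.52, -0.60 and -0.50. The filter bears on these distances. In Adar OE with the main scaling, 13 of 58 members passed only through the controls and had to be lower (4.57% of all genes). Only 1 member, but 19.0% of all genes, passed only through Adar OE. At a mean of at least 50 normalized reads the distance was -0.37 in Adar OE and -0.38 in Adar KD, with 10 members each. Between Adar OE and Adar KD it was -0.48, with 7 members.

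In Adar KD against control the other scalings, filters and fits of all 6 or 9 libraries gave 0 to 2 calls. Total reads and cyclic loess each called 0 members in either direction, against 2.79% of all genes lower and 2.02% higher with total reads and 3.71% and 3.13% with cyclic loess. Size factors from high genes called 1 member higher, atp5f1e, and 0 lower (3.50% and 1.84% of all genes). All 9 libraries in 1 fit called 2 lower and 0 higher (7.63% and 3.33%), and no filter likewise 2 and 0 (2.06% and 3.16%). In Adar OE against Adar KD, total reads called 3 members lower and 1 higher (6.83% and 9.40% of all genes), cyclic loess 2 and 0 (7.14% and 6.98%), high genes 0 and 1 (4.24% and 17.7%), all 9 libraries 4 and 0 (8.99% and 8.48%) and no filter 4 and 2 (3.46% and 6.20%). The shares of members called lower between the injected groups were thus near or below those of all genes under these settings.

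**Figure D3:**
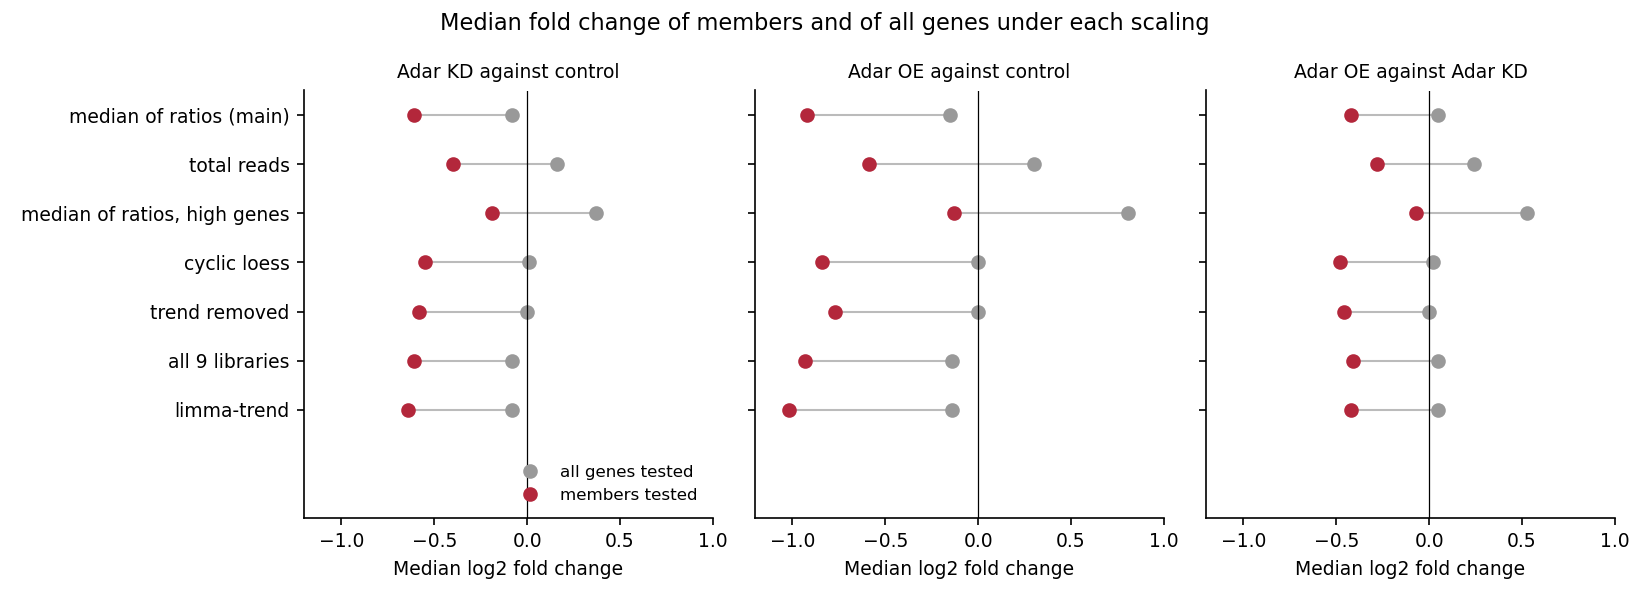
Median log2 fold change of the members tested (red) and of all genes tested (grey) under 7 scalings or fits, in the 3 comparisons. Under each of them the members lie below all genes, with a distance of -0.94 to -0.77 in Adar OE, while the place of both against 0 moves with the scaling. In Adar OE with the main scaling, 13 of 58 members passed the filter only through the controls and had to be lower. They enter the median, so the filter bears on the distance.

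Complex V, the ATP synthase, held the genes with most reads. atp5f1b, the catalytic beta subunit, had 432, 508 and 831 normalized reads in control, 445, 246 and 345 in Adar KD and 190, 244 and 143 in Adar OE. Its highest Adar OE library was below the lowest control and below the lowest Adar KD library. The log2 fold change was -1.57 ± 0.26 (SE, limma, adjusted p = 0.0011) in Adar OE against control, the smallest p of the members, and -0.83 ± 0.27 (adjusted p = 0.033) in Adar OE against Adar KD. In Adar KD against control it was -0.75 (95% interval -1.43 to -0.08, adjusted p = 0.18). The call in Adar OE against control was kept in 14 of 15 alternatives. atp5f1a, the alpha subunit that forms the catalytic head with it, was at 141, 133 and 300 in control, 135, 65.6 and 168 in Adar KD and 65.8, 62.0 and 64.9 in Adar OE. It fell by 1.44 on the log2 scale in Adar OE (SE 0.29, limma adjusted p = 0.0026), and all Adar OE libraries were below all controls, with Adar KD 2 close to them. The difference in Adar KD was -0.63 (interval -1.42 to 0.16).

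A pair of small subunits had their highest mean in Adar KD. atp5f1e, the epsilon subunit of the central stalk, had 85, 63.4 and 103 normalized reads in control, 117, 105 and 129 in Adar KD and 69.6, 51.1 and 75.7 in Adar OE. atp5mf, the membrane subunit f, was at 31.1, 53.2 and 58.7 in control, 55.5, 66.4 and 96.8 in Adar KD and 37.5, 29.4 and 27.6 in Adar OE. In Adar KD all atp5f1e values were above all controls and those of atp5mf overlapped them, and neither was called against control, with log2 fold changes in Adar KD of 0.50 (interval -0.13 to 1.14) and 0.64 (interval -0.09 to 1.36). Both were lower in Adar OE than in Adar KD, by a log2 fold change of -0.85 ± 0.27 for atp5f1e (SE, limma, adjusted p = 0.030) and -1.14 ± 0.31 for atp5mf (adjusted p = 0.011). The call of atp5mf between Adar OE and Adar KD was also made after the trend with level was subtracted, at an adjusted p of 0.043, and that of atp5f1e was not (adjusted p = 0.24). With size factors from high genes, atp5f1e was called higher in Adar KD than in control, at a log2 fold change of 0.95.

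atp5pf, the subunit F6 of the peripheral stalk, had 14.6, 36.8 and 77.2 normalized reads in control, 25.6, 26.1 and 31.9 in Adar KD and 12.2, 10.8 and 7.21 in Adar OE. It was called lower in Adar OE against both other groups, at log2 fold changes of -1.55 and -1.32 and adjusted p = 0.049 and 0.046 from limma, although the controls were spread widely and control 1 was close to Adar OE. atp5mc3, a subunit of the c ring that turns in the membrane, was at 53.0, 75.7 and 142 in control, 42.4, 7.57 and 46.7 in Adar KD and 42.1, 38.7 and 50.5 in Adar OE. Adar KD 2 was far below the other libraries, and the log2 fold change in Adar KD was -1.74 (SE 0.52, limma adjusted p = 0.0504, not called), which was -0.86 without that library. In Adar OE it fell by 0.89 (limma adjusted p = 0.043), a call that was lost in 12 of 15 alternatives, with -0.30 after cyclic loess and -0.21 with the trend subtracted. atp5pb, the subunit b of the peripheral stalk, ran at 33.8, 53.2 and 125 in control, 24.8, 21.9 and 34.2 in Adar KD and 36.0, 35.6 and 36.0 in Adar OE. Adar OE overlapped the control here, and the log2 fold change of -0.68 was not called (interval -1.45 to 0.10). The remaining complex V calls in Adar OE were atp5po, the OSCP subunit of the stalk, and atp5mj, with log2 fold changes of -1.46 and -0.99. The call of atp5po was lost in 6 of 14 alternatives and that of atp5mj in 11 of 14.

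The inhibitor of ATP synthase is encoded by a pair of genes, and neither was called in Adar KD. atp5if1b, which like atp5if1a was chosen after its values were seen, had 14.6, 16.4 and 12.4 normalized reads in control, 29.2, 26.1 and 34.2 in Adar KD and 16.1, 9.29 and 2.40 in Adar OE. All Adar KD libraries were above all others, with a log2 fold change of 0.96 that did not pass the adjustment (limma, adjusted p = 0.19). Its partner atp5if1a was at 31.1, 18.4 and 27.8 in control and 12.4, 10.1 and 19.4 in Adar KD, a log2 fold change of -0.95 that was not called either. The difference between the pair was not tested.

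**Figure D4:**
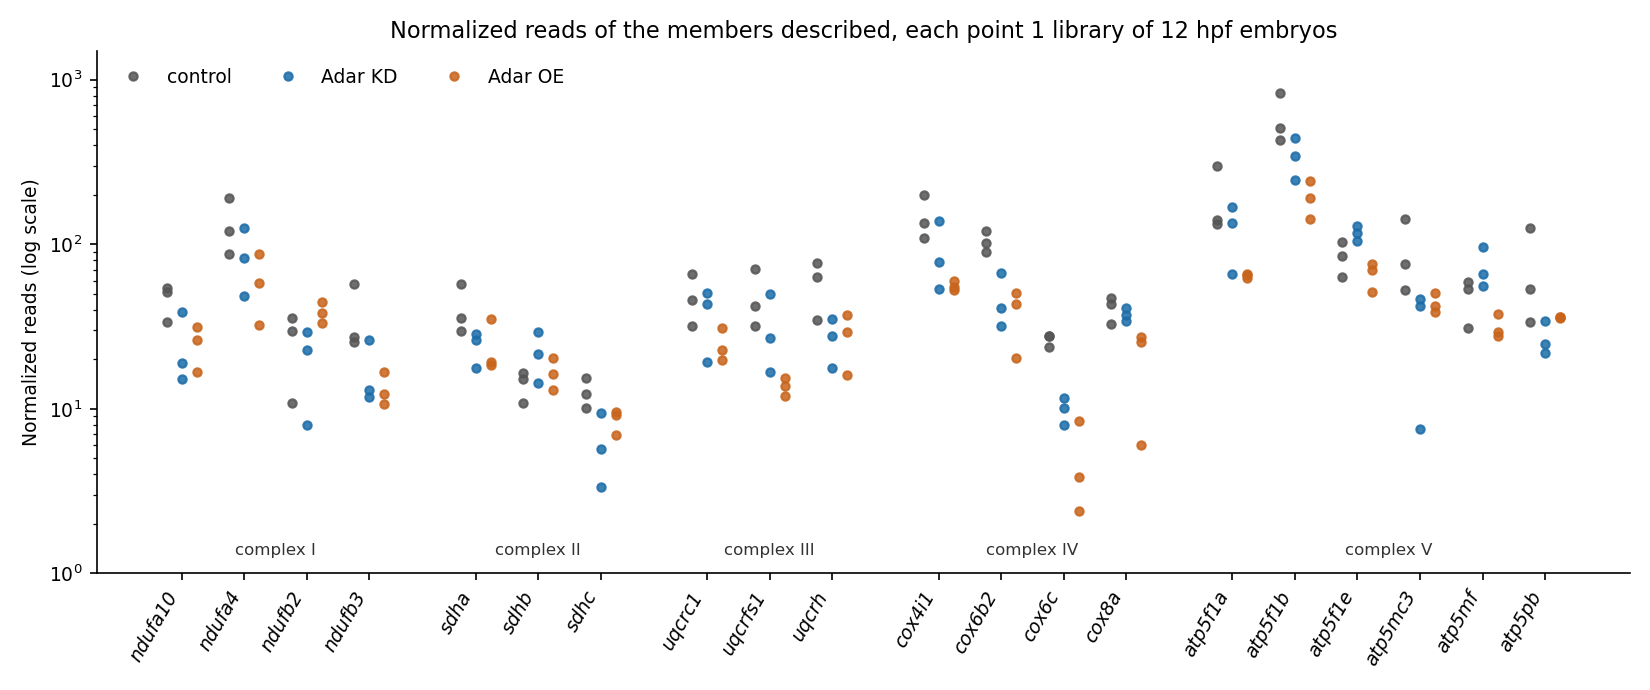
Normalized reads (log axis) of 20 members in each 12 hpf library, with 3 points per group and the groups side by side. atp5f1b, atp5f1a, uqcrfs1, cox4i1 and cox6b2 show all Adar OE libraries below all controls, and atp5f1e and atp5mf have their highest mean in Adar KD.

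In complex IV 5 of 9 tested genes were lower in Adar OE with the main scaling (18.3% of all genes), and 2 of 9 with the trend subtracted (4.51% of all genes). These 2, cox6c and cox5aa, had Adar OE means of 4.9 and 7.73. Both passed the filter only through the controls and had to be lower, so their calls are no support for a fall. cox4i1, a subunit that takes part in the regulation of the oxidase by ATP, had 110, 134 and 198 normalized reads in control, 78.1, 53.8 and 138 in Adar KD and 59.7, 52.7 and 55.3 in Adar OE. It fell by 1.33 on the log2 scale in Adar OE (SE 0.26, limma adjusted p = 0.0024), while in Adar KD its log2 fold change was -0.78 (interval -1.52 to -0.04, adjusted p = 0.21). cox6b2, one of the subunits that face the intermembrane space, was at 102, 90 and 120 in control, 32.1, 41.2 and 67.2 in Adar KD and 50.5, 43.4 and 20.4 in Adar OE. This was the only member called in both comparisons with control, with log2 fold changes of -1.23 ± 0.33 in Adar KD (SE, limma, adjusted p = 0.032) and -1.45 ± 0.30 in Adar OE (adjusted p = 0.0030). In Adar KD the call was lost in 9 of 14 alternatives: with total reads, with size factors from high genes, with cyclic loess, with the trend subtracted and without any 1 library other than Adar KD 3.

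cox6c, another small structural subunit, had the lowest log2 fold change of all members tested in Adar OE, on few reads. Its means of 4.9 in Adar OE and 9.91 in Adar KD were under 10. It thus passed the filter only through the controls and had to be lower in both comparisons with control. It was at 23.8, 27.6 and 27.8 normalized reads in control, 11.7, 10.1 and 7.97 in Adar KD and 8.41, 3.87 and 2.40 in Adar OE. Both groups were below all controls, Adar KD 3 lay below Adar OE 1, and the log2 fold change was -2.35 ± 0.64 in Adar OE (SE, limma, adjusted p = 0.012) and -1.32 ± 0.47 in Adar KD (adjusted p = 0.10). cox8a, a small membrane subunit, was at 32.9, 47.0 and 43.2 in control, 40.9, 37.0 and 34.2 in Adar KD and 27.5, 25.6 and 6.01 in Adar OE. All Adar OE libraries were lower, without a call (log2 fold change -1.10, adjusted p = 0.055). cox7b and the cox5b gene ENSDARG00000015978 were called lower in Adar OE as well, at log2 fold changes of -1.16 and -1.21. These calls were lost in 9 of 15 and 6 of 14 alternatives. The symbols cox5b, cox6a1, cox7a2 and sdhd each stand for more than 1 gene in the tables, and reads that fit several copies could not be placed, so their counts are uncertain.

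Among the other complex IV isoforms the counts were low and ran in both directions. Mean normalized reads in control and Adar OE were 8.7 and 0.765 for cox7c. They were 6.7 and 2.34 for the cox6a1 gene ENSDARG00000022438. The cox7a2 genes ENSDARG00000053217 (8.52 and 2.85) and ENSDARG00000110700 (11.7 and 5.74) were lower in Adar OE as well. These genes too were chosen after their values were seen. The cox5b gene ENSDARG00000068738 had 1.83, 1.02 and 0 normalized reads in control, 5.11, 18.5 and 3.42 in Adar KD and 6.12, 9.29 and 18.0 in Adar OE. The cox6a1 gene ENSDARG00000054588 was at 8.23, 11.2 and 3.09 in control and at 10.7, 14.7 and 21.6 in Adar OE, a log2 fold change of 0.85 that was not called with the main scaling (interval -0.45 to 2.16). Its mean in control was 7.52, so it passed the filter only through Adar OE and had to be higher. In mammals several of these subunits exist in tissue-specific forms, of which the heart and muscle form cox7a1 had 0 reads in control and Adar KD and 1, 4 and 3 reads in Adar OE.

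Complex III reduces cytochrome c. uqcrfs1, its Rieske iron-sulfur subunit, had 32.0, 41.9 and 71.0 normalized reads in control, 27.0, 16.8 and 50.1 in Adar KD and 13.8, 15.5 and 12.0 in Adar OE. All Adar OE libraries were below all libraries of both other groups. It fell by 1.62 on the log2 scale against control (SE 0.39, limma adjusted p = 0.0061), and the call was kept in 13 of 14 alternatives, the trend with level included. It was lost with size factors from high genes, at -0.84. uqcrh, the hinge protein at the cytochrome c site, was at 34.8, 63.4 and 77.2 in control, 27.7, 17.7 and 35.3 in Adar KD and 16.1, 29.4 and 37.2 in Adar OE. Its fold change was -1.09 on the log2 scale against control in both Adar KD (adjusted p = 0.10, limma) and Adar OE (adjusted p = 0.032), called in the latter only, and between Adar OE and Adar KD it was -0.02 (interval -0.76 to 0.73). uqcrc1, a core protein, had 32.0, 46.0 and 66.4 in control and 19.9, 31.0 and 22.8 in Adar OE, not called at -0.86 (interval -1.57 to -0.16).

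Complex I is the largest of the complexes, and 6 of its 24 tested genes fell in Adar OE, near the 18.3% of all genes. With the trend subtracted 8 of 24 were called, against 4.51% of all genes. Most of these, ndufa6, ndufb9, ndufc2, ndufs7 and ndufv2, passed the filter only through the controls and had to be lower. The others were ndufa8, ndufb3 and ndufb5. This share is therefore a description and no support for a fall. ndufa4, named after complex I but found in mammals as a subunit of cytochrome c oxidase, had 87.8, 120 and 190 normalized reads in control, 82.5, 48.8 and 126 in Adar KD and 58.1, 87.5 and 32.4 in Adar OE. Adar OE 2 was just below control 1, and the log2 fold change was -1.12 ± 0.33 (SE, limma, adjusted p = 0.019). ndufb3, an accessory subunit of the membrane arm, had 27.4, 25.6 and 57.1 in control, 13.1, 11.8 and 26.2 in Adar KD and 10.7, 12.4 and 16.8 in Adar OE. Its log2 fold change was -1.35 ± 0.41 in Adar OE (adjusted p = 0.020, limma), and -1.09 in Adar KD (interval -2.00 to -0.18) without a call. The accessory subunits ndufb9, ndufb5 and ndufa8 were called as well, at -1.67, -1.57 and -1.47. Their calls were lost in 7, 10 and 7 of 14 alternatives.

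Some complex I genes did not share this direction. ndufb2, an accessory subunit of the membrane arm, had 35.7, 29.7 and 10.8 normalized reads in control, 29.2, 22.7 and 7.97 in Adar KD and 38.2, 33.3 and 44.5 in Adar OE. Its log2 fold change of 0.59 in Adar OE was not called (interval -0.19 to 1.37), nor was the 0.96 between Adar OE and Adar KD (adjusted p = 0.078, limma). ndufa9, an accessory subunit near the quinone site, was at 13.7, 32.7 and 32.4 in control, 16.1, 35.3 and 23.9 in Adar KD and 29.8, 34.8 and 36.0 in Adar OE, with 0.50 (interval -0.26 to 1.25). These genes were among the members called higher in Adar OE with size factors from high genes. ndufa10, an accessory subunit, had the smallest p of complex I in Adar KD. It ran at 33.8, 54.2 and 51.0 in control, 19.0, 15.1 and 38.7 in Adar KD and 31.4, 26.3 and 16.8 in Adar OE, and its log2 fold changes of -1.06 and -0.83 were not called (adjusted p = 0.115 and 0.0622, limma).

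Complex II has few subunits, all encoded in the nucleus, and 0 of its 3 tested genes were called in Adar OE. sdha, the flavoprotein that oxidizes succinate, had 35.7, 29.7 and 57.1 normalized reads in control, 26.3, 17.7 and 28.5 in Adar KD and 35.2, 18.6 and 19.2 in Adar OE. Its log2 fold changes were -0.70 in Adar KD (interval -1.48 to 0.09) and -0.66 in Adar OE (interval -1.40 to 0.07). sdhb, the iron-sulfur subunit, was at 16.5, 15.3 and 10.8 in control, 29.2, 14.3 and 21.6 in Adar KD and 13, 16.3 and 20.4 in Adar OE. Neither of its differences from control was called, at 0.49 (interval -0.50 to 1.47) and 0.09 (interval -0.78 to 0.96). sdhc, a membrane anchor, had 10.1, 12.3 and 15.4 in control and 9.18, 6.97 and 9.61 in Adar OE, a log2 fold change of -0.49 (interval -1.55 to 0.56). The 4 sdhaf genes that the rule also takes in are assembly factors of this complex and had too few reads for a test.

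**Figure D5:**
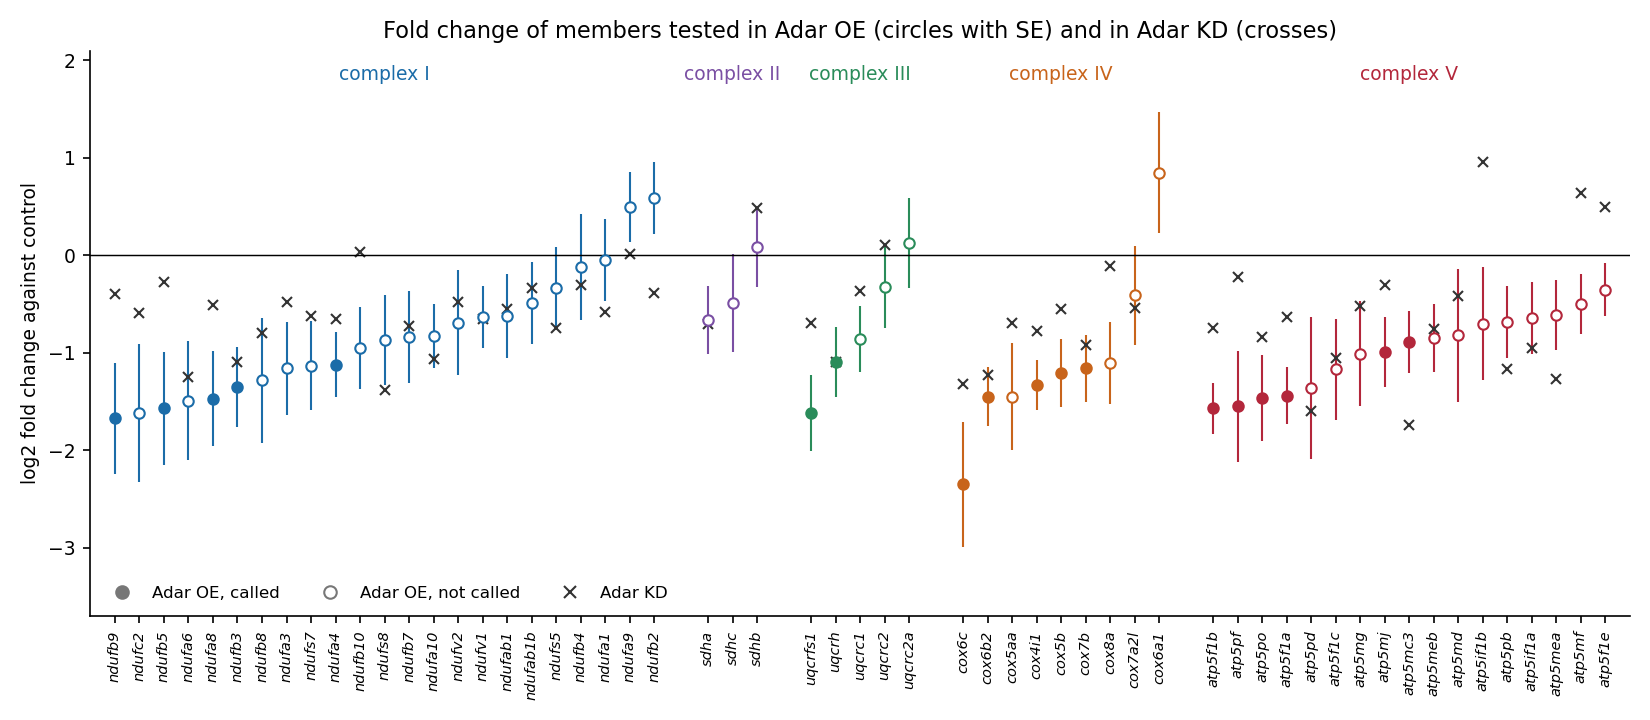
log2 fold change against control of 57 members tested in Adar OE (circles with SE, filled where the adjusted p was under 0.05) and of the same genes in Adar KD (crosses), by complex. The 18 filled circles are all below 0, with 5 in complex I, 0 in complex II, 2 in complex III, 5 in complex IV and 6 in complex V.

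Of the 100 genes, 40 were tested in no comparison and 47 in all 3. Among the 40, the largest count in 1 library was 27 reads. They include 18 complex I and 11 complex IV genes. At this depth 6 members had 0 reads in every control library, where 0 of 2463548 reads allows up to 3 reads by counting error. Of these, the sdhd gene ENSDARG00000055712 had 0 reads in Adar KD and 8, 2 and 1 in Adar OE, and ndufa4l2, a paralog of ndufa4, had 1, 1 and 0 in Adar KD and 4, 4 and 3 in Adar OE. uqcrb had 5 reads over the Adar OE libraries, ndufs1 3 and the cox5b gene ENSDARG00000113254 2. No fold is given for these counts. Over all genes, 26180 to 27530 had a read in Adar OE libraries and 17464 to 21233 in controls. How many other genes without control reads had reads in Adar OE was not counted. A filter on the mean removes genes with so few reads, so that the calls above say nothing of them.

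The other genes of mitochondrial energy metabolism were counted in the same fits. Of the subunits that the rule leaves out, cyc1, the cytochrome c1 of complex III, and cycsb, a cytochrome c, both fell in Adar OE. cyc1 had 81.4, 69.5 and 165 normalized reads in control, 67.9, 48.8 and 52.4 in Adar KD and 29.1, 36.4 and 45.7 in Adar OE. cycsb was at 213, 272 and 292 in control, 143, 112 and 163 in Adar KD and 98.7, 110 and 106 in Adar OE. Their log2 fold changes in Adar OE were -1.41 ± 0.32 (SE, limma, adjusted p = 0.0051) and -1.29 ± 0.22 (adjusted p = 0.0013), and for both the call was lost when the trend with level was subtracted (adjusted p = 0.14 and 0.16).

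The TCA cycle, which feeds electrons to the chain, had 6 of 16 tested genes lower and 1 higher in Adar OE, with a median of -0.82. Over all genes tested, 18.3% were lower and 12.6% higher, with a median of -0.15. idh3g, a subunit of isocitrate dehydrogenase, fell from 35.7, 39.9 and 55.6 normalized reads in control to 14.5, 14.7 and 22.8 in Adar OE (log2 fold change -1.34, limma adjusted p = 0.0087), and ogdha, of the oxoglutarate dehydrogenase complex, rose from 14.6, 20.4 and 24.7 to 47.4, 52.7 and 39.7 (1.29, adjusted p = 0.0091). After the trend with level was subtracted, 1 TCA gene was called in each direction, idh3g and ogdha (4.51% of all genes lower and 7.94% higher). In Adar KD 1 gene of the TCA list, dld, was called lower (-1.69, adjusted p = 0.046 from limma). This compares with 4.70% of all genes. Its call was lost with the trend subtracted (limma adjusted p = 0.0535). The list was matched by symbol, and whether this gene is the TCA enzyme was not checked. Of the 43 assembly factors of the complexes 11 were tested in Adar OE, with 0 calls and a median of -0.23. Glycolysis had 1 of 5 tested genes lower in Adar OE, pgam1a, a call lost with the trend subtracted (limma adjusted p = 0.084). Among 12 tested genes of mitochondrial biogenesis, gabpa, a transcription factor subunit known in mammals to bind promoters of respiratory chain genes, and ssbp1, a protein that binds mitochondrial DNA, were called lower in Adar OE, with log2 fold changes of -0.76 and -1.51. With the trend subtracted the call of gabpa was lost (limma adjusted p = 0.914) and that of ssbp1 was not (0.0484). The shares of the glycolysis and biogenesis genes called lower were near the 18.3% of all genes. In Adar KD 0 genes of these last 3 lists were called in limma.

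Of the subunits encoded in the mitochondrial genome, all 13 were tested. Their median log2 fold change was 0.26 in Adar KD, with all 13 above 0 and 0 called by limma (4.70% of all genes lower, 1.54% higher). In Adar OE it was -0.25, with mt-co1 and mt-co2 of complex IV called lower, a share below the 18.3% of all genes. mt-co1 had 5874, 5719 and 6398 normalized reads in control, 6973, 5624 and 7424 in Adar KD and 3434, 3552 and 3630 in Adar OE, a log2 fold change of -0.76 ± 0.19 in Adar OE (SE, limma, adjusted p = 0.0079). mt-atp6 of complex V was at 1002, 617 and 571 in control, 871, 1543 and 1217 in Adar KD and 1093, 1073 and 695 in Adar OE. The mitochondrial genes with most reads are subject to the same trend with level. After it was subtracted, 3 were called higher in Adar KD (1.94% of all genes). In Adar OE 2 were called higher and 0 lower (7.94% and 4.51% of all genes), and the median was 0.37. The difference between the nuclear and the mitochondrial subunits was not tested.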

How the data were processed

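Embryos of 12 hpf were compared, with 3 libraries each of control, Adar KD and Adar OE. Per the labels and the paper's methods, the authors made stranded libraries from rRNA-depleted RNA, aligned them with STAR 2.7.7a to GRCz10, counted reads per gene with HTSeq 0.11.2 and compared groups with DESeq2 in R 3.6.3. The strand setting of the counting is not given in the sources used here. The deposited tables give a mean of normalized counts over 6 libraries for each gene, treated here as a signal, beside the authors' own fold changes, standard errors, test statistics and p-values, which were not used. Of the reads in the means, 88.8% to 89.5% were listed as on no feature and only 2.69% to 2.85% fell on genes. The rest were in other rows that name no gene, and all such rows stayed out of the totals.

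Each library is in 2 of the 3 tables, and the means have 15 digits. The sum of a group is therefore a sum of 3 whole read numbers, each divided by its size factor. The size factors were read from genes with reads in 1 library, and the read numbers were found by lattice reduction. All 290 group sums above 0 of the members had exactly 1 solution. 6 genes, none of them a member, with 14.1% of the reads on genes, had several and were left out. They are also missing from the shares and from the totals of reads on genes. Size factors computed anew from these reads were within 0.068% of those found. In the design, this recovery had been named as the preferred input. The tables do not tell which library of a group is which.

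The test was limma 3.58.1 voom in R 4.3.3, 2-sided, with the authors' size factors, genes with a mean of at least 10 normalized reads and Benjamini-Hochberg adjustment over all genes tested. Tables and plots were made with Python 3.11.15, numpy 2.4.6, pandas 2.3.3, scipy 1.17.1 and matplotlib 3.10.9. Correlations of libraries used log2(normalized reads + 0.5). Alternatives were other scalings, filters and fits, subtraction of the median trend in 40 bins with the outermost bins split into 10 parts, and leaving out libraries. In simulated counts with 200 changed genes, 91.0% of 4-fold and 15.3% of 2-fold changes were recovered in Adar OE against control. In Adar KD against control 90.6% and 23.6% were recovered. The simulation had no trend with level and 1 spread setting for all genes, so these rates need not hold in the data.

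The genes described were, in each complex and comparison, the 2 with the smallest p and the one with most reads, with others named for lost calls or where the text says so, and at most 3 genes of each other list in each comparison. 1 complex I gene enters the counts and is not reported here by itself. The members, lists and tests were chosen with earlier results of these data known. Symbols came from a table that matched 29200 of the 32519 gene IDs.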

Additional observations from a re-analysis of the deposited data

How the results depend on the processing

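With 3 libraries a group, leaving out 1 library gave 5 to 27 members called in Adar OE against control (19 with all), 0 to 3 in Adar KD against control (1 with all) and 0 to 15 in Adar OE against Adar KD (4 with all), with medians of -1.14 to -0.74, -0.78 to -0.37 and -0.70 to -0.19. The calls of Adar OE against control were 27 of 59 without control 1 (18.4% of all genes tested called lower). They were 5 of 58 without Adar OE 1 and 7 of 58 without Adar OE 2 (8.63% and 12.4% of all genes). Without Adar OE 3 they were 9 of 57 (12.8%). Without Adar OE 1 or 2 the share of members called lower was thus near that of all genes. In Adar OE against Adar KD the calls without Adar KD 2 were 14 lower and 1 higher (17.9% and 13.8% of all genes). The calls were 0 without Adar KD 3 (5.91% of all genes lower and 3.19% higher). They were 1 lower without each of Adar KD 1, Adar OE 1 and Adar OE 2 (4.90%, 3.76% and 4.97% of all genes lower). Without Adar OE 3 they were 2 (5.99%). In Adar KD against control they were 3 of 58 without control 1, against 3.85% of all genes tested called lower. Without Adar KD 3 they were 2 of 60, against 390 of all 9752 genes tested. Both shares of members were near those of all genes. Without any of the others 0 members were called (1.93% to 3.23% of all genes lower).

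Cyclic loess gave 8, 0 and 2 members called, in the order Adar OE against control, Adar KD against control and Adar OE against Adar KD. Size factors from genes of at least 100 reads gave 5, 1 and 1, with medians of -0.13 and -0.19 in the comparisons with control. Total reads gave 7 and 0 in the comparisons with control, and the subtracted trend gave 0 in Adar KD against control. The shares of all genes called under these scalings are given above. An adjusted p under 0.01 gave 5, 0 and 0, without a count over all genes. A mean of at least 50 reads gave 6 of 10 members lower in Adar OE against control, against 49.5% of all genes. In Adar KD against control it gave 1 of 10 (13.6%). In Adar OE against Adar KD it gave 4 of 7 (25.3%) and a median of -0.83. In Adar KD against control, all 9 libraries in 1 fit gave 2 and no filter on low counts gave 2. The cause of these differences was not tested. At a mean of at least 50 reads only 10 members were left to test in each comparison with control. In Adar OE against Adar KD 7 were left. Leaving out control 1 and Adar OE 2 together was chosen after the data were seen. No member that was called changed its direction in an alternative. No paired analysis was possible because the recovered libraries of a group carry no replicate number. Depth limited the tests to 60 of the 100 members.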
